A study of Mus musculus with 8 samples.

Results

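Fatty acid synthesis and desaturation were followed through 10 genes of the deposited expression table, Acly, Acaca, Fasn, Scd1, Scd2, Elovl5, Elovl6, Fads1, Fads2, and Srebf1, which were selected by their symbols. The table listed 24354 genes, each of the 10 symbols matched 1 row, and all 10 genes passed the filter on low values described below. RNA sequencing had been performed to ask whether the gene expression of neural stem cells (NSCs) was reprogrammed to that of extended pluripotent stem cells (EPSCs) after the 2 cell types were fused. The data comprised 8 libraries, all from mouse, with 2 libraries for each of 4 groups: embryonic stem cells (ESCs), EPSCs, NSCs, and the hybrid cells of EPSCs and NSCs.

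ESCs were the E14 embryonic stem cell line, and both ESCs and EPSCs were labelled as wild type. ESCs were kept in low-glucose DMEM with 15% fetal bovine serum and LIF on feeder cells, which were mitomycin C-inactivated fibroblasts of C3H embryos. NSCs carried 1 copy each of the OG2 transgene (GFP driven by the distal enhancer of Oct4) and of ROSA26 (lacZ in all tissues), and they grew without feeders or serum on gelatin, with the N2 supplement, EGF, and FGF2. EPSCs had been derived from 8-cell C57BL/6 embryos and were kept on feeders in N2B27-LCDM medium, which contains minocycline hydrochloride, dimethindene maleate, CHIR99021, and human LIF together with knockout serum replacement and B27. They were sequenced as line 1 at passage 15. Hybrid cells came from polyethylene glycol fusion of EPSCs with NSCs, were near-tetraploid, were picked as colonies in which Oct4-GFP had been switched on, and were kept like EPSCs. They were sequenced as line 2-2 at passage 10. Each group was thus 1 line. The study calls the libraries of a group independent experiments without saying what was repeated, so the p-values below measure the spread between libraries of a line and not between lines. Between NSCs and the other groups, cell type, medium, serum or lipid supply, and feeder layer changed together and cannot be told apart. ESCs and EPSCs both had feeders, but cell type, line, medium, and serum changed together. Hybrid cells and EPSCs shared medium and feeders, but fusion, ploidy, line, and passage changed together and cannot be told apart either.

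Cells make fatty acids from acetyl-CoA, which is exported from mitochondria as citrate, carboxylated to malonyl-CoA, and condensed into palmitate. Elongases then lengthen the chain and desaturases insert double bonds, either into the saturated chains made by the cell or into polyunsaturated chains taken up from food or medium. Much of the pathway is under the transcription factors called sterol regulatory element-binding proteins (SREBPs), and neural stem and progenitor cells are known to depend on making their own fatty acids.

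Values are in FPKM, the fragments of a gene divided by transcript length in kilobases and by mapped fragments in units of 1000000, a unit per length in which levels of different genes can be set side by side. The sequencing depth, derived from the steps on which low FPKM values lie, was 22100000 to 32600000 fragments per library, and 3 fragments on a transcript of 2 kb were worth 0.0511 to 0.0754 FPKM. These limits cover counting error only, and every value of the 10 genes lay far above them. All FPKM of a library summed to between 415239 and 653796, with both NSC libraries lowest. The 6 pluripotency markers, which include Pou5f1 and Nanog, summed to 4371 to 5229 FPKM in the ESC, EPSC, and hybrid cell libraries. Dppa5a held the largest part of these sums, with means of 2820, 2620, and 2890 FPKM in the 3 groups. In NSCs the 6 markers summed to 0.55 and 0.52 FPKM, and Pou5f1, Zfp42, Dppa5a, and Tdgf1 were listed at 0. The 7 NSC markers, which include Nes and Pax6, summed to 3738 and 3692 FPKM in NSCs and to 10.8 to 19.4 FPKM elsewhere. Fabp7 held the largest part of the NSC sums, with a mean of 2750 FPKM. Fibroblast markers, 8 genes that include Col1a1 and Col3a1, summed to 10.7 and 12.0 FPKM in ESCs, 4.86 and 5.08 in NSCs (Col1a2 and Lum at 0), 84.6 and 81.7 in EPSCs, and 324 and 241 in hybrid cells.

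The level of each gene is given next in the order of its step in the pathway. Acly encodes ATP citrate lyase, which releases acetyl-CoA from citrate in the cytosol. It was at 83.6 and 81.9 FPKM in the 2 ESC libraries, 143 and 141 in NSCs, 134 and 130 in EPSCs, and 128 and 118 in hybrid cells. ESCs were lowest, and the other groups lay close together without overlapping. Acaca encodes acetyl-CoA carboxylase, which makes malonyl-CoA in the committed step. Its levels were 6.50 and 6.23 FPKM in ESCs, 18.2 and 18.1 in NSCs, 12.7 and 12.0 in EPSCs, and 7.97 and 7.92 in hybrid cells. Acaca was the lowest of the 10 genes in all 4 groups, and hybrid cells were nearer to ESCs than to either parent. Fasn encodes fatty acid synthase, which builds palmitate. It was measured at 44.0 and 43.5 FPKM in ESCs, 115 and 117 in NSCs, 51.0 and 55.6 in EPSCs, and 75.1 and 75.9 in hybrid cells, which stood between the parents.

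The elongases and desaturases spanned a wider range. Elovl6 encodes the elongase that extends palmitate toward stearate, and its FPKM values were 28.2 and 27.2 in ESCs, 39.7 and 43.4 in NSCs, 31.3 and 34.2 in EPSCs, and 24.0 and 27.3 in hybrid cells. The hybrid cell libraries lay below both parents and overlapped with ESCs. Elovl5 encodes an elongase of polyunsaturated chains, with 32.6 and 32.2 FPKM in ESCs, 140 and 148 in NSCs, 50.3 and 50.6 in EPSCs, and 45.7 and 49.9 in hybrid cells. NSCs stood alone at the top. Scd1 and Scd2 encode stearoyl-CoA desaturases, which turn saturated into monounsaturated chains, and Scd2 is the form known from brain. Scd1 was at 25.2 and 25.4 FPKM in ESCs, 168 and 166 in NSCs, 37.4 and 35.2 in EPSCs, and 32.2 and 26.7 in hybrid cells. Scd2 was at 171.5 and 171.3 FPKM in ESCs, 1274 and 1295 in NSCs, 121 and 112 in EPSCs, and 113 and 94.3 in hybrid cells, the last 2 groups overlapping. By mean FPKM, Scd2 ranked 14 among all genes of the NSCs, against rank 948 in hybrid cells, 848 in EPSCs, and 482 in ESCs. The 2 genes are close paralogs, and how the authors assigned reads that match both was not given in the sources used here, so their split is uncertain.

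Fads1 and Fads2 encode the front-end desaturases of polyunsaturated fatty acid synthesis. Fads1 was at 22.6 and 23.4 FPKM in ESCs, 171 and 169 in NSCs, 25.4 and 29.6 in EPSCs, and 23.1 and 29.8 in hybrid cells. The hybrid cell libraries overlapped with those of both ESCs and EPSCs, and their log2 ratio of 0.37 was the largest between libraries of one group among the 10 genes. Fads2 was at 15.6 and 14.9 FPKM in ESCs, 246 and 239 in NSCs, 35.3 and 39.2 in EPSCs, and 33.3 and 33.6 in hybrid cells. Its 4 groups did not overlap, and its range of group means, 3.90 on the log2(FPKM + 1) scale, was the widest of the 10 genes. Srebf1 encodes SREBP1, the regulator of lipogenic genes, and was at 24.8 and 25.4 FPKM in ESCs, 41.8 and 44.9 in NSCs, 12.2 and 13.8 in EPSCs, and 15.6 and 15.6 in hybrid cells. It was 1 of only 2 genes, with Scd2, at which both EPSCs and hybrid cells lay below ESCs without overlap.

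**Figure D1:**
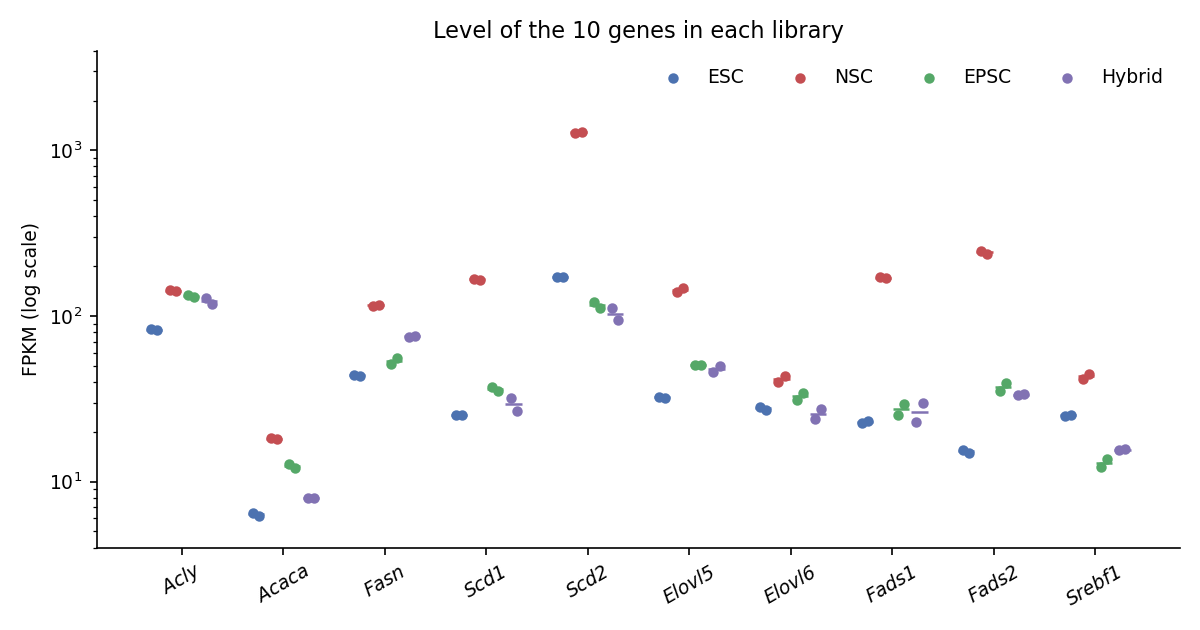
FPKM on a log axis (vertical) of each of the 10 genes (horizontal) in the 2 libraries of each group, coloured by group. Each point is 1 library and each short line a group mean; the NSC libraries are highest for every gene, and Scd2 reaches 1274 and 1295 FPKM there.

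Summed over the 10 genes, NSCs had 2358 and 2380 FPKM, against 454.7 and 451.4 in ESCs, 510.3 and 512 in EPSCs, and 497.5 and 478.6 in hybrid cells. Scd2 alone made up 54.1% and 54.4% of the NSC sum, 37.7% and 37.9% of the ESC sum, 23.7% and 21.9% of the EPSC sum, and 22.6% and 19.7% of the hybrid cell sum. Scd2 was the highest of the 10 genes in ESCs and NSCs and Acly was the highest in EPSCs and hybrid cells. In the order of group means, NSCs came first for all 10 genes. ESCs were last for Acly, Acaca, Fasn, Scd1, Elovl5, Fads1, and Fads2, hybrid cells were last for Scd2 and Elovl6, and EPSCs were last for Srebf1. Neighbours in these orders that limma did not separate were NSCs and EPSCs as well as EPSCs and hybrid cells for Acly, hybrid cells and ESCs for Scd1, EPSCs and hybrid cells for Scd2, Elovl5, and Fads2, ESCs and hybrid cells for Elovl6, and EPSCs, hybrid cells, and ESCs for Fads1.

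Groups were compared with limma on log2(FPKM + 1) over 13239 genes, those whose mean FPKM reached 1 in any group, and a gene was called at a Benjamini-Hochberg adjusted p under 0.05 over all of these. Fold changes on this scale slightly understate those of low genes. A second criterion, that of the methods of the study, asked that the higher mean exceed 3 FPKM and that it exceed the lower mean more than 3 times. For single values, an exact permutation test of 2 against 2 libraries cannot go below p = 0.33.

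Hybrid cells had lower levels than their NSC parent for all 10 genes. The difference was largest for Scd2 and the polyunsaturated fatty acid desaturases and smallest for Acly. Mean FPKM of Scd2 was 1284.5 ± 14.6 (SD, n = 2) in NSCs and 103 ± 13.0 in hybrid cells, 12.4-fold lower. Limma gave a log2 fold change of -3.63 (SE 0.08, adjusted p = 1.46e-08). Fads2 was 7.25-fold lower (log2 -2.82, SE 0.06, adjusted p = 1.2e-08), Fads1 was 6.45-fold lower (log2 -2.65, SE 0.12, adjusted p = 3.55e-07), and Scd1 was 5.66-fold lower (log2 -2.47, SE 0.08, adjusted p = 9.19e-08). These 4 genes are the desaturases of the list. Elovl5, the elongase that works with Fads1 and Fads2 on polyunsaturated chains, was 3.01-fold lower (log2 -1.57, SE 0.06, adjusted p = 1.31e-07), whereas Elovl6 was 1.62-fold lower (log2 -0.68, SE 0.08, adjusted p = 0.000106). Srebf1 was 2.78-fold lower (log2 -1.42, SE 0.07, adjusted p = 6.46e-07). Of the 3 genes of palmitate synthesis, Acaca was 2.29-fold lower (log2 -1.10, SE 0.07, adjusted p = 1.57e-06), Fasn was 1.53-fold lower (log2 -0.61, SE 0.05, adjusted p = 1.71e-05), and Acly was 1.15-fold lower (log2 -0.21, SE 0.05, adjusted p = 0.00823).

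These 10 calls of 10 stand against a background in which limma called 86.5% of tested genes, and 42.0% of tested genes were called as lower in hybrid cells. A call with a change over 2-fold downward was made for 7 of the 10 genes and for 23.9% of all tested genes. The median log2 fold change was -1.49 over the 10 genes and 0.06 over all tested genes. By the criterion of the study, Scd1, Scd2, Elovl5, Fads1, and Fads2 passed as lower in hybrid cells, which 8.87% of the 24354 genes listed did. Elovl5 was near that limit and did not pass without the second NSC library or without the first hybrid cell library, leaving 4 genes. Scaling each library to a sum of 1000000 moved the median of all genes from 0.06 to -0.51 and the share of calls that were higher in hybrid cells from 51.5% to 34.5%. The 10 genes stayed lower and called, with their median 1.55 below that of all genes as deposited and 1.62 below it after scaling. Under this scaling the log2 fold change of Acly was -0.83, that of Acaca -1.74, that of Fasn -1.23, and that of Elovl6 -1.30.

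**Figure D2:**
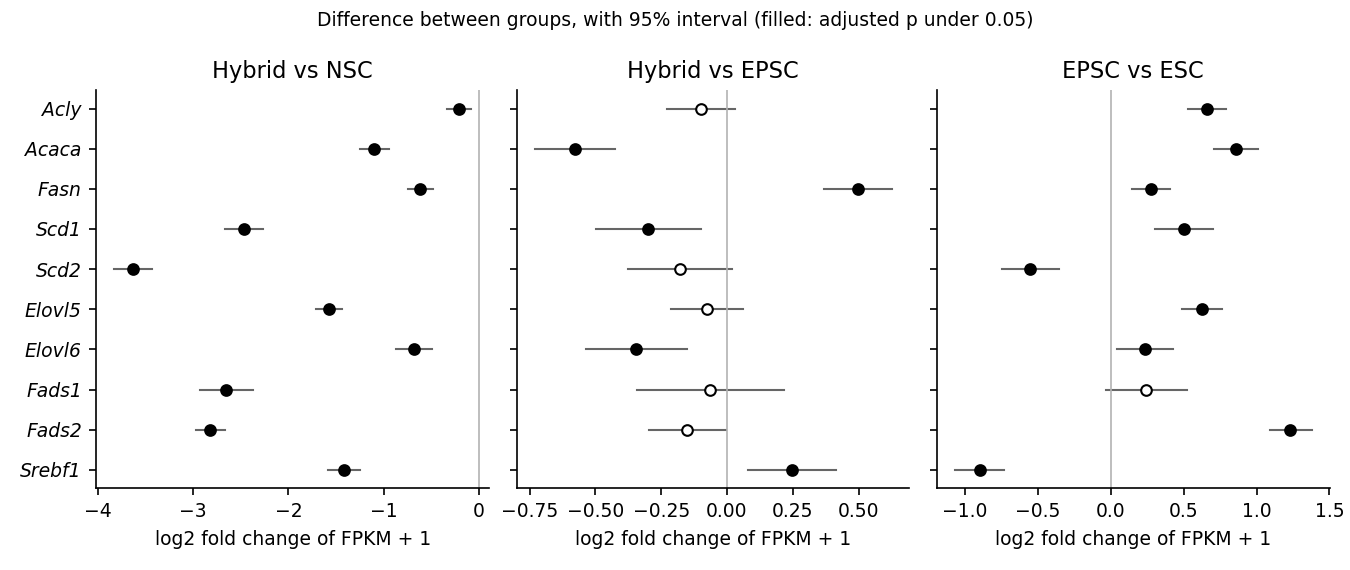
Log2 fold change on the log2(FPKM + 1) scale (horizontal axes) of each of the 10 genes (vertical axis) for the comparisons named above the panels, with 95% intervals of limma as bars and filled points for called genes. Against NSCs all points lie left of 0, down to -3.63 for Scd2, and between hybrid cells and EPSCs they lie between -0.58 and 0.50.

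The unfused pluripotent cells also had lower levels than NSCs. In EPSCs, 9 of the 10 genes were lower than in NSCs, where limma called 86.2% of all genes and 41.0% as lower. Scd2 differed most (log2 -3.45, SE 0.08, adjusted p = 1.73e-08), followed by Fads2 (log2 -2.67), Fads1 (log2 -2.59), Scd1 (log2 -2.17), and Srebf1 (log2 -1.66). Acly was not called (log2 -0.11, 95% interval -0.24 to 0.02, adjusted p = 0.0992). It was called under scaling to a common sum (log2 -0.72, adjusted p = 3.06e-06) and under quantile normalization (log2 -0.64, adjusted p = 3.62e-06). In ESCs all 10 genes were lower than in NSCs, against 84.7% of all genes called and 41.9% called as lower. Here Fads2 differed most (log2 -3.90, SE 0.06, adjusted p = 3.41e-09), with Scd2 at log2 -2.90, Fads1 at -2.84, Scd1 at -2.67, and Elovl5 at -2.12. The criterion of the study was met by 5 genes in each of these comparisons, as against 8.94% of all genes lower in EPSCs and 8.65% lower in ESCs. Scaling to a common sum moved the median of all genes to -0.48 in EPSCs and -0.47 in ESCs. Calls that were higher fell to 35.1% (EPSCs, 52.4% before) and 34.2% (ESCs, 50.5% before). All 10 genes moved with this shift, large and small differences alike. In EPSCs, Scd2 was then at log2 -4.07, Fasn at -1.73, Acaca at -1.13, and Elovl6 at -0.95. In ESCs, Fads2 was at -4.49, Acly and Srebf1 at -1.32, and Elovl6 at -1.12. Relative to the median of all genes, little changed. The median of the 10 genes lay at -1.66 as deposited and -1.73 after scaling in EPSCs, and at -1.78 and -1.86 in ESCs. Acly in EPSCs lay at -0.185 as deposited and -0.243 after scaling on this relative scale. The NSC libraries are shared by the comparisons with NSCs, so these are not independent of each other. In bulk RNA, fewer cells of a type and less RNA per cell cannot be told apart.

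Between hybrid cells and EPSCs, the mean FPKM of the 10 genes differed by at most 1.56-fold, that of Acaca, and the calls went in both directions. Fasn was higher in hybrid cells (75.5 ± 0.584 against 53.3 ± 3.27 FPKM, log2 0.50, SE 0.05, adjusted p = 0.000664), as was Srebf1 (15.6 ± 0.0530 against 13.0 ± 1.09 FPKM, log2 0.25, SE 0.07, adjusted p = 0.0268). Acaca, the step just before Fasn, was lower (7.94 ± 0.0324 against 12.4 ± 0.478 FPKM, log2 -0.58, SE 0.07, adjusted p = 0.000734). Elovl6 (log2 -0.34, SE 0.08, adjusted p = 0.0131) and Scd1 (log2 -0.30, SE 0.08, adjusted p = 0.0252) were lower as well. The 5 calls of 10, 2 higher and 3 lower, compare with 44.4% of all tested genes called, 22.5% as higher and 21.9% as lower. By the criterion of the study no gene of the 10 passed, and 0.866% of all genes did. The other 5 genes were not called. For Acly the 95% interval of the log2 fold change was -0.23 to 0.03, for Scd2 -0.38 to 0.02, for Elovl5 -0.21 to 0.06, for Fads1 -0.34 to 0.22, and for Fads2 -0.30 to -0.003, with adjusted p = 0.182, 0.127, 0.316, 0.7, and 0.0895.

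Of these calls, those of Fasn and Acaca held in every alternative, and the others did not. Scd1 was not called without the first EPSC library (adjusted p = 0.107) or without the second hybrid cell library (log2 -0.17, adjusted p = 0.0619). Elovl6 was not called without the second EPSC library (adjusted p = 0.0638) or without the first hybrid cell library (adjusted p = 0.0509). Srebf1 was not called without the first EPSC library (adjusted p = 0.116) or without either hybrid cell library (adjusted p = 0.0614 and 0.0667), nor after scaling to a common sum (adjusted p = 0.0566). With only EPSCs and hybrid cells in the model, none of these 3 was called (adjusted p = 0.122, 0.0715, and 0.135 for Scd1, Elovl6, and Srebf1). In the other direction, Scd2 was called without the first hybrid cell library (log2 -0.30, adjusted p = 0.0129) and Fads2 without the first EPSC library (adjusted p = 0.0344). Summed fibroblast markers, given above, were higher in both hybrid cell libraries than in both EPSC libraries, all 8 of them called, and their part in these differences was not tested.

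Most of the enzyme genes had higher levels in EPSCs than in ESCs, whereas Srebf1 and Scd2 were lower. Of the 10 genes, 7 were higher in EPSCs and 2 were lower, where limma called 61.0% of all genes, 33.7% as higher and 27.3% as lower. Fads2 differed most, with 37.3 ± 2.74 FPKM in EPSCs and 15.3 ± 0.503 in ESCs (log2 1.23, SE 0.06, adjusted p = 8.82e-06). Acaca (log2 0.86), Acly (log2 0.66), Elovl5 (log2 0.62), Scd1 (log2 0.50), Fasn (log2 0.28), and Elovl6 (log2 0.24) were higher too. Srebf1 (13.0 ± 1.09 against 25.1 ± 0.368 FPKM, log2 -0.90, SE 0.07, adjusted p = 5.46e-05) and Scd2 (117 ± 6.19 against 171 ± 0.209 FPKM, log2 -0.55, SE 0.08, adjusted p = 0.00106) were lower. Srebf1 and 7 of the 9 enzyme genes thus lay on opposite sides of the ESC level. The call of Elovl6 (adjusted p = 0.0398) was lost without either ESC library (adjusted p = 0.104 and 0.173), without the second EPSC library (adjusted p = 0.176), without the filter on low values (adjusted p = 0.0592), after scaling (adjusted p = 0.145), and after quantile normalization (adjusted p = 0.134). Fads1 was not called (95% interval -0.03 to 0.52, adjusted p = 0.112). The criterion of the study was met by none of the 10 genes and by 2.57% of all genes. With both limits at 2, which the results of the study name, Fads2 alone met it, as did 7.07% of all genes.

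In hybrid cells, Fads2 (log2 1.08), Fasn (log2 0.77), Acly (log2 0.56), Elovl5 (log2 0.55), and Acaca (log2 0.28) were higher than in ESCs, and Scd2 (log2 -0.73) and Srebf1 (log2 -0.65) were lower. Limma called 65.5% of all genes here, 35.3% as higher and 30.2% as lower, and 3.63% met the criterion of the study, which none of the 10 did. With both limits at 2, Fads2 alone met it, as did 8.93% of all genes. The adjusted p of the 7 calls lay between 1.02e-05 for Fads2 and 0.00677 for Acaca, and Acaca was not called without the second ESC library (adjusted p = 0.0536). The 3 genes without a call were Scd1 (95% interval 0.01 to 0.40, adjusted p = 0.0663), Elovl6 (-0.30 to 0.08, adjusted p = 0.277), and Fads1 (-0.10 to 0.46, adjusted p = 0.216). Scd1 was called without the second hybrid cell library (adjusted p = 0.00307) and Fads1 without the first (adjusted p = 0.0153). ESCs are shared by both of these comparisons. All 8 fibroblast markers were higher in EPSCs and hybrid cells than in ESCs, and their part in these differences was not tested. Serum was present in the ESC medium and serum replacement in the LCDM medium, and medium and cell type cannot be told apart.

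Since hybrid cells hold the genomes of both parents, their levels were also set against the midpoint of EPSCs and NSCs on the log2(FPKM + 1) scale. The difference from the midpoint is the mean of the log2 fold changes against the 2 parents, so it is not independent of those comparisons. Of the 10 genes, 9 were lower than the midpoint, where limma called 77.2% of all genes, 38.5% as lower. The largest differences were those of Scd2 (log2 -1.90, SE 0.07, adjusted p = 5.59e-07), Fads2 (log2 -1.49), Scd1 (log2 -1.38), and Fads1 (log2 -1.36). The median was -0.83 over the 10 genes and 0.00 over all genes. Fasn was at the midpoint within its error (log2 -0.06, 95% interval -0.17 to 0.05, adjusted p = 0.296). After scaling to a common sum, which moved the median of all genes to -0.27 and the share of calls that were higher from 50.1% to 33.4%, Fasn was lower (log2 -0.37, adjusted p = 0.000697), as it was after quantile normalization (log2 -0.27, adjusted p = 0.00228). Acly (log2 -0.15, adjusted p = 0.0196) was not called without the second hybrid cell library (log2 -0.09, adjusted p = 0.128).

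As a share of the arithmetic mean of the parents' FPKM, hybrid cells had 14.8% for Scd2, 23.9% for Fads2, 26.7% for Fads1, 29.0% for Scd1, 49.2% for Elovl5, 52.1% for Acaca, 55.4% for Srebf1, 68.9% for Elovl6, 89.3% for Fasn, and 89.9% for Acly. On a log2 axis on which NSCs are at 0 and EPSCs at 1, Fads1 was at 1.02, Scd2 and Elovl5 were at 1.05, Fads2 was at 1.06, and Scd1 was at 1.14. Srebf1 was at 0.85 and Fasn at 0.55, the 2 genes whose hybrid cell libraries lay between those of the parents. Acly was at 1.92, Elovl6 at 2.02, and Acaca at 2.11. For Acly neither the distance between the parents nor that between hybrid cells and EPSCs was called.

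**Figure D3:**
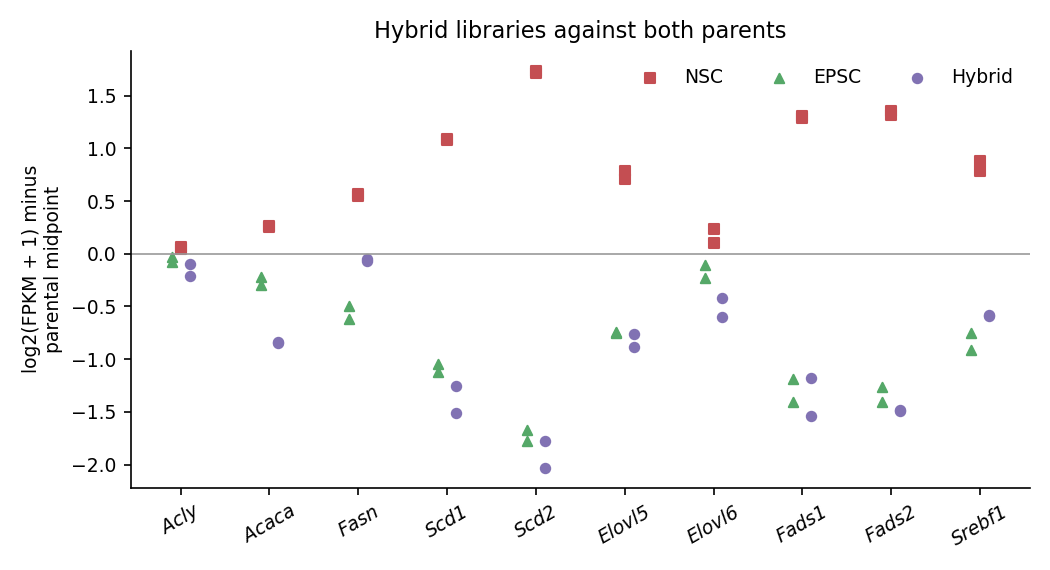
Log2(FPKM + 1) of the NSC, EPSC, and hybrid cell libraries (squares, triangles, and circles) minus the midpoint of the 2 parental means (vertical axis, 0 at the midpoint) for each of the 10 genes (horizontal axis). Hybrid cells sit between the parents for Fasn and Srebf1, overlap with EPSCs for Scd2 and Fads1, and lie below both parents for the other genes, farthest for Acaca.

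Ratios of paired genes within a library do not depend on the scaling of the library. Scd1 over Scd2 was 0.147 and 0.148 in ESCs, 0.131 and 0.128 in NSCs, 0.309 and 0.314 in EPSCs, and 0.286 and 0.283 in hybrid cells. The paralog ratio thus separated EPSCs and hybrid cells from both ESCs and NSCs, within the uncertainty of reads shared by the 2 genes. Fads1 over Fads2 was 1.45 and 1.57 in ESCs, and it was below 1 in the other groups, at 0.696 and 0.709 in NSCs, 0.718 and 0.755 in EPSCs, and 0.693 and 0.885 in hybrid cells. Elovl5 over Elovl6 was 3.53 and 3.40 in NSCs, 1.91 and 1.83 in hybrid cells, 1.61 and 1.48 in EPSCs, and 1.16 and 1.19 in ESCs.

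Acaca over Fasn, the ratio of consecutive steps, was 0.249 and 0.216 in EPSCs and 0.106 and 0.104 in hybrid cells, with ESCs (0.148 and 0.143) and NSCs (0.158 and 0.155) in between. Acaca exceeded its paralog Acacb, which encodes the mitochondria-bound carboxylase, by 166 and 189 times in NSCs, 3.39 and 3.15 times in ESCs, 4.37 and 2.98 times in EPSCs, and 3.11 and 1.98 times in hybrid cells. Acacb was at 0.103 ± 0.0101 FPKM in NSCs. Srebf1 over Srebf2, the gene of the SREBP that favours cholesterol synthesis, was 0.497 and 0.510 in ESCs, 0.364 and 0.394 in NSCs, 0.20 and 0.197 in EPSCs, and 0.315 and 0.286 in hybrid cells. None of the 36 combinations of ratio and comparison could reach significance, since the smallest exact two-sided p, 0.33, became 0.375 after adjustment over the 36.

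**Figure D4:**
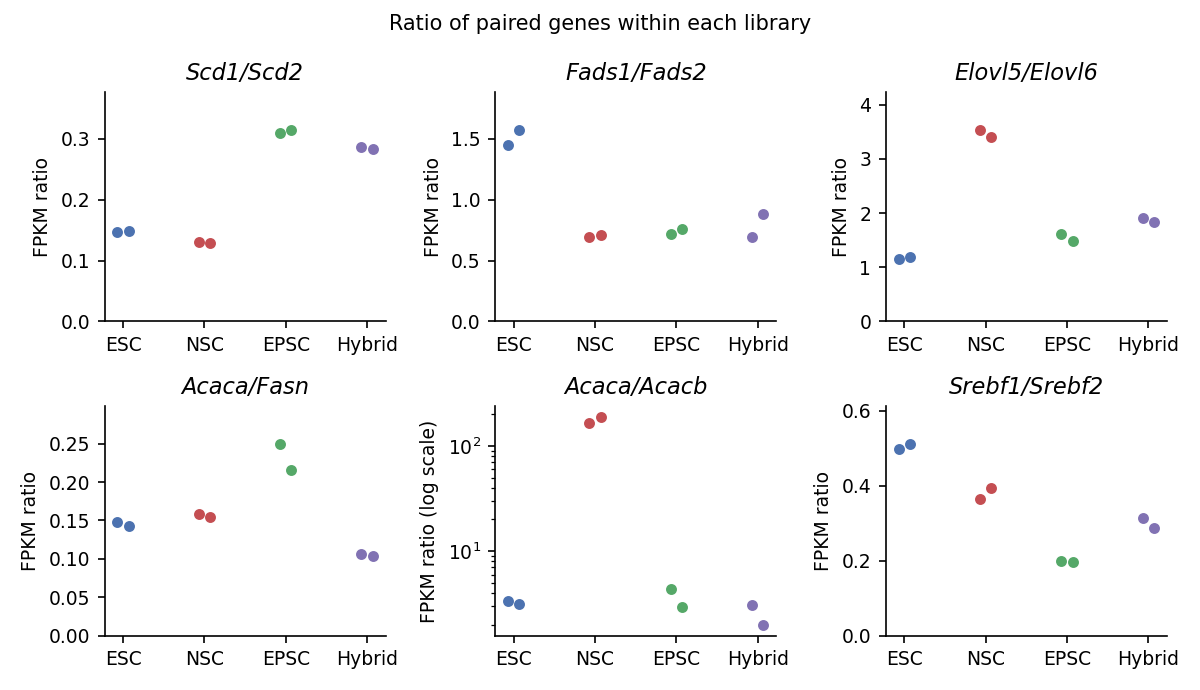
FPKM ratio of paired genes (vertical axes, log scale for Acaca over Acacb) in each library of the 4 groups (horizontal axes). Points are single libraries; Scd1 over Scd2 is 0.283 to 0.314 in EPSCs and hybrid cells and 0.128 to 0.148 in ESCs and NSCs.

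Some of the 10 genes are neighbours in the genome. In the RefSeq annotation of GRCm38.p6, Fads2 (chr19:10062765-10101503, minus strand) and Fads1 (chr19:10182877-10196874, plus strand) were 81.4 kb apart, and Scd2 (chr19:44293676-44306864, plus strand) and Scd1 (chr19:44394450-44407709, minus strand) were 87.6 kb apart. Acaca (chr11:84129635-84401651, plus strand), Acly (chr11:100476352-100528000, minus strand), Fasn (chr11:120805958-120825166, minus strand), and Srebf1 (chr11:60199084-60224186, minus strand) share chromosome 11 at larger distances. Elovl5 is at chr9:77917365-77984519 and Elovl6 at chr3:129532386-129638495, both on the plus strand. Scd1 and Fads1, on different gene pairs, had the profiles over the 8 libraries that were most alike among the 10, with a root mean square distance of 0.23 on the centred log2 scale, though 148 of the tested genes were nearer to Scd1 than Fads1 was. For Fads2, the gene of widest range, the 5 nearest of all tested genes were Ppp1r9b (0.11), Gng12 (0.16), Fos (0.17), Lrrfip1 (0.18), and C1qtnf6 (0.20), and 174 genes were nearer to it than Fads1, its nearest gene among the 10 (0.44).

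Because the genes were all highest in NSCs, their promoters were searched for the letters of motifs known from lipogenic promoters. RefSeq windows of GRCm38.p6, from 250 bases before to 50 bases after a start site, matched Acly, Acaca, Fasn, Elovl5, Elovl6, Fads2, and Srebf1, the last with 3 windows. Scd1, Scd2, and Fads1 are named only. On both strands, the sterol regulatory element TCACNCCAC was in none of the windows of these 7 genes, whereas 1.44% of all 27025 genes had it in a window, which says only that these letters are not in these windows. The E-box CACGTG was in the window of Elovl5 and in windows of 8.09% of all genes. The inverted CCAAT box ATTGG was in windows of Acly, Fasn, Elovl5, and Srebf1 and of 41.1% of all genes, and the GC box GGGCGG in windows of Acly, Fads2, and Srebf1 and of 38.2% of all genes. Of the 4 motifs, only the CCAAT box overlapped a second copy of itself, in the Fasn window, where copies on opposite strands began 62 and 59 bases before the start site. Elovl5 had the only E-box among these genes, and Acly had 4 GC boxes upstream in a single window. Srebf1 also had 4 GC boxes upstream, spread over different windows. Elovl5 and Acly are shown for these motifs, and as a gene with a large and a gene with a small difference between NSCs and hybrid cells. Both stretches run 5′ to 3′ on the strand of the gene from 200 to 11 bases before its start, and capitals mark motif matches, which are a description and not binding sites. The Elovl5 stretch is chr9:77917165-77917354 (plus strand) and the Acly stretch is chr11:100528011-100528200 (minus strand).
Elovl5: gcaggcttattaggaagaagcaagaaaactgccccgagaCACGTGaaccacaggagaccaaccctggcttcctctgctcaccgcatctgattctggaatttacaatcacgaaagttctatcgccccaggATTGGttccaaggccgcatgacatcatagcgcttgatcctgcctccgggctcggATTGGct
Acly: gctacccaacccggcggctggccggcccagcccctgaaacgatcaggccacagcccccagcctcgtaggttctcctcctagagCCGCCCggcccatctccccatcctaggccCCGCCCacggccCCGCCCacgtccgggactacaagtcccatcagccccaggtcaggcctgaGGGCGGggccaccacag

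Beyond the 10 genes, 64 others of fatty acid synthesis, its regulation, and the use of its products were listed, of which 58 passed the filter. Between hybrid cells and NSCs, 40 of the 58 were lower, 13 were higher, and 5 were not called, with a median log2 fold change of -0.77. The share called was 91.4%, beside 86.5% of all tested genes, and 42.0% of all tested genes were called as lower. The supply of precursors and NADPH was lower for 5 of 6 genes. Acss2, which makes acetyl-CoA from acetate, was at 31.3 ± 3.39 FPKM in NSCs and 3.30 ± 0.553 in hybrid cells (log2 -2.91, adjusted p = 1.86e-07), and Me1, the malic enzyme that yields NADPH, was at 61.3 ± 2.71 and 14 ± 1.86 (log2 -2.06, adjusted p = 7.67e-07). The exception was Pgd of the pentose phosphate pathway, at 72.6 ± 1.17 FPKM in NSCs and 214 ± 2.77 in hybrid cells (log2 1.54, adjusted p = 7.51e-08). Of 4 other genes around the carboxylase, 3 were lower, among them Mid1ip1, whose product activates acetyl-CoA carboxylase (103 ± 1.15 against 18.2 ± 1.30 FPKM, log2 -2.44), and Mlycd, whose product degrades malonyl-CoA (9.12 ± 0.161 against 0.823 ± 0.0167 FPKM, log2 -2.47). Olah was listed at 0 in NSCs and hybrid cells.

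The counts of the next lists stand beside 86.5% of all tested genes called and 42.0% called as lower in hybrid cells. With so few genes per list, they only describe the lists. Of 9 other elongation enzymes, NSCs exceeded hybrid cells for 7 and lay below them for 1. Elovl2 was at 9.21 ± 0.121 against 0.806 ± 0.0734 FPKM and Elovl4 at 13.5 ± 0.448 against 2.10 ± 0.119 FPKM. Elovl3 was listed at 0 in ESCs, EPSCs, and hybrid cells, and Hacd4 was listed at 0 in NSCs. Of 6 other genes of desaturation, 3 were lower and 3 were higher. Not all of them encode desaturases, since the list also holds cytochrome b5 and its reductase. The higher ones included Fads6 (0.320 ± 0.0244 against 3.42 ± 0.707 FPKM) and Scd3 (0.0585 ± 0.0221 against 1.12 ± 0.0532 FPKM). Scd3 is a paralog of Scd1 and Scd2, and its NSC level was near that of 3 fragments on a transcript of 2 kb. Mitochondrial fatty acid synthesis was lower for 3 of 5 genes. Among 8 genes of SREBP processing and partner regulators, 4 were lower and 3 were higher. Insig1, which retains SREBPs in the endoplasmic reticulum, was at 121 ± 3.35 FPKM in NSCs and 42.0 ± 3.33 in hybrid cells (log2 -1.51, adjusted p = 2.96e-07), and Scap, which escorts them out, was at 43.9 ± 0.511 and 18 ± 1.32 (log2 -1.24, adjusted p = 8.09e-07).

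Among the fatty acid binding proteins, Fabp7, a marker of neural stem cells that was also in the NSC marker list, was highest in NSCs, at 2750 ± 63.0 FPKM against 0.157 ± 0.115 in hybrid cells. Fabp3 went the other way, from 0.517 ± 0.272 FPKM in NSCs to 447 ± 107 in hybrid cells (log2 8.20, adjusted p = 1.46e-08), and Fabp4 was listed at 0 in NSCs. In all, 9 of 13 genes of uptake, binding, and activation were lower and 3 were higher, beside 86.5% of all tested genes called and 42.0% called as lower. Of 7 genes of glycerolipid synthesis, 6 were lower, with Gpam, the acyltransferase of the entry step, at 39.8 ± 3.40 against 3.27 ± 0.612 FPKM (log2 -3.26), whereas Agpat2 of the following step was higher, at 0.826 ± 0.0195 against 30.8 ± 5.53 FPKM (log2 4.11).

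Between hybrid cells and EPSCs, 14 of the 58 genes were higher, 17 were lower, and 27 were not called (median -0.07), a share of 53.4% called against 44.4% of all tested genes. The 3 with the largest differences were Elovl7 (3.21 ± 0.0850 FPKM in EPSCs and 0.629 ± 0.106 in hybrid cells, log2 -1.37, adjusted p = 0.000112), Fabp5 (27.4 ± 6.05 and 10.5 ± 3.76, log2 -1.33, adjusted p = 0.00357), and Insig1 (84.9 ± 2.94 and 42.0 ± 3.33, log2 -1.0, adjusted p = 0.000119). Scap was higher in hybrid cells (log2 0.51, adjusted p = 0.00121). Srebf1 above was higher too, a call lost in several alternatives, whereas Srebf2 was lower (log2 -0.325, adjusted p = 0.0123). Mid1ip1 (log2 -0.46, adjusted p = 0.00276) was lower, as was Acaca. Between EPSCs and ESCs, 25 of the 58 genes were higher and 21 were lower, with 79.3% called against 61.0% of all tested genes.

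**Figure D5:**
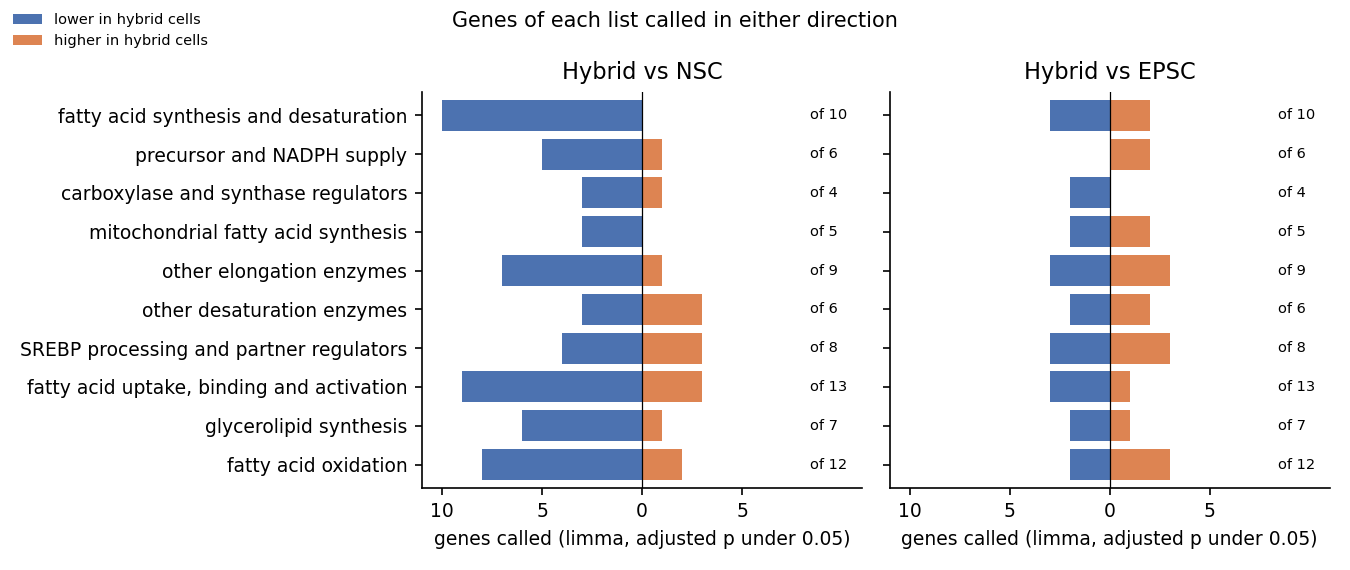
Number of genes called by limma at an adjusted p under 0.05 in each gene list (bars to the left lower, to the right higher in hybrid cells), against NSCs and against EPSCs, with the number tested at the right. Against NSCs all 10 genes of fatty acid synthesis and desaturation (top row) are lower, and against EPSCs 3 are lower and 2 higher. Of all tested genes, 42.0% were called as lower against NSCs, and 21.9% as lower and 22.5% as higher against EPSCs.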

How the data were processed

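Poly-A RNA of 8 mouse libraries (4 groups of 2) was sequenced. The authors trimmed reads with skewer 0.2.2, aligned them to mm10 with STAR 2.7.9a, and deposited FPKM for each gene and library from Cuffnorm of Cufflinks 2.2.1. The gene annotation, the strand setting, and the library normalization were not given in the sources used here. Spacing of low FPKM values gave the depth, for fragments assumed to be 200 nucleotides long.

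Values were analysed with R 4.3.3 and with Python 3.11.15 (matplotlib 3.10.9, scipy 1.17.1, pandas 2.3.3, numpy 2.4.6). Limma 3.58.1 (lmFit, contrasts, eBayes with trend) was fitted on log2(FPKM + 1) of 13239 genes, those whose mean FPKM reached 1 in any group, with 4 groups in one model (4 residual and 3.25 prior degrees of freedom), two-sided, with Benjamini-Hochberg adjustment. The model was tested on simulated data. Errors are SD over 2 libraries. The 10 genes and the lists of other genes were chosen with earlier results of these data known. All 10 genes are described. From each other list, genes named were the 2 with the largest called change between hybrid cells and NSCs or EPSCs and genes at 0 in a group, and Acacb and Srebf2 are named through their ratios. A gene that this rule would name is not reported here. Gene positions and promoter sequences are from RefSeq (GRCm38.p6). Alternatives covered the constant added, the filter, scaling, quantile normalization, the groups in the model, the replicate number as a block, and leaving out each library.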

Additional observations from a re-analysis of the deposited data

How the results depend on the processing

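Of 800 log2 fold changes of the 10 genes recomputed under alternatives, 770 kept their direction and side of the threshold, 19 lost a call, 9 gained one, and 2 changed sign. The sign changes were those of Fads1 between hybrid cells and EPSCs, which was called in none of them and ranged from -0.24 to 0.12 with 1 library left out, being 0.04 without the second EPSC library and 0.12 without the first hybrid cell library. Between hybrid cells and EPSCs, 5 of the 10 genes were called. The count was 2 with only these 2 groups in the model, which also lowered the count over all genes from 5881 to 2811, and 3 to 4 with 1 library left out. The criterion of the study with both limits at 2 was met by 1 gene, Fads2, between EPSCs and ESCs and by 1 between hybrid cells and ESCs, instead of 0. The log2 ratio of Acaca over Fasn in ESCs relative to NSCs was -0.11 and became 0.0054 with 1 added to each value.

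Replicate numbers were shared between groups but nothing stated that they mark a common culture or day, and deviations of same-numbered libraries correlated at -0.11 to 0.28. With the replicate block, hybrid cells had 5 of the 10 genes called against EPSCs and 10 against NSCs, and there were 9 calls between EPSCs and NSCs, 9 between EPSCs and ESCs, 8 instead of 7 between hybrid cells and ESCs, where Scd1 was added (adjusted p = 0.0484), 10 between ESCs and NSCs, and 9 against the midpoint. Of the 13239 tested genes, the block called 6060, 11511, 11441, 8250, 8757, 11265, and 10311, in the same order of comparisons. Crossing the numbers between ESCs and NSCs, an alternative chosen after seeing the data, called 10 of the 10 genes and 11295 of the tested genes.

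Depth did not limit the 10 genes, whereas genes near the level of 3 fragments on a transcript of 2 kb, such as Scd3 in NSCs, are imprecise. With 2 libraries of 1 line per group, differences between lines were not measured, and no group was examined for single deviating libraries.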

Other observations

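Fatty acid oxidation, the opposite of the pathway described above, was listed with 13 genes, of which 12 passed the filter. Between hybrid cells and NSCs, 8 of the 12 were lower and 2 were higher, beside 86.5% of all tested genes called and 42.0% called as lower, with a median log2 fold change of -0.91. Acadl, the long-chain acyl-CoA dehydrogenase, was at 129 ± 5.78 FPKM (SD, n = 2) in NSCs and 13.4 ± 0.468 in hybrid cells (limma log2 -3.18, adjusted p = 8.67e-09). Between hybrid cells and EPSCs, 3 of the 12 were higher and 2 were lower, beside 44.4% of all tested genes called. Among carnitine palmitoyltransferases, Cpt1b was lower in hybrid cells (3.22 ± 0.437 FPKM in EPSCs and 1.17 ± 0.321 in hybrid cells, log2 -0.96, adjusted p = 0.00128), whereas Cpt1c, a form known from brain, was higher (6.12 ± 0.893 and 10.4 ± 1.80, log2 0.68, adjusted p = 0.00444).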
